A study of Homo sapiens and Mus musculus with 66 samples.

Results

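In HCT116 cells, a human colorectal cancer cell line, 1624 windows of 100 kb were called as lamina-associated domains (LADs) in bulk cells and in none of the cells sorted in G1, S or G2. Another 762 windows were called in at least 1 sorted phase and not in bulk cells. These 2386 of the 30970 windows on the autosomes and the 2 sex chromosomes were found by setting the bulk list of LADs against the union of the G1, S and G2 lists, and are named bulk-only and sorted-only here. A further 6720 windows were shared by both sides, and 21864 were in neither.

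LADs are stretches of chromatin that lie at the nuclear lamina (NL), the meshwork of lamin proteins under the inner nuclear membrane. They are typically poor in genes and in GC, replicate late and hold much of the silent chromatin of a cell. The NL is taken apart in mitosis, and chromosomes find their place at it again when the nucleus reforms in early G1. In cTSA-seq an antibody against lamin-B1 brings a peroxidase to the NL, and the enzyme deposits biotin on proteins and DNA close by. The biotinylated chromatin is pulled down with streptavidin, and its DNA is sequenced beside an input.

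Bulk cells were an asynchronous, unsorted culture. G1, S and G2 cells came from asynchronous cultures that were fixed, stained with a Hoechst dye for DNA content and sorted, and the G2 gate can also hold mitotic cells. None of these 4 groups received a treatment, and the labels hold 2 input and 2 pull-down libraries for each. Sorting and staining differ between bulk and sorted cells, and the preparation of the cells may differ too. Their parts in any difference cannot be told apart. The 90m G1 and 180m G1 cells, used here for comparison, were arrested with nocodazole for 16 h by the labels (the study's methods give a longer time), shaken off, released for 90 or 180 min and sorted in G1. Also used were lists from 50000, 200000 and 1000000 unsorted HCT116 cells, for which the labels hold 1 input each and 2, 2 and 1 pull-down libraries, and a list from K562, a human leukemia cell line. It is not known whether these cell-number experiments share libraries with the bulk experiment. Each condition is 1 list of called regions with no signal or read count. The depth behind a call and the spread between replicates cannot be given from these lists, no test was made, and every difference below is a description of the lists. A stretch at the NL in few cells and a stretch a little farther from it in every cell cannot be told apart in such lists. The files hold no expression values, so the cell line could not be checked against marker genes.

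The base composition of the windows is shown first, because it differed between the classes. The sequences are the middle 200 bases of the middle window of the longest bulk-only and sorted-only runs, on the plus strand of hg19. Every CG dinucleotide is in capitals.
Bulk-only chr2:131649901-131650100: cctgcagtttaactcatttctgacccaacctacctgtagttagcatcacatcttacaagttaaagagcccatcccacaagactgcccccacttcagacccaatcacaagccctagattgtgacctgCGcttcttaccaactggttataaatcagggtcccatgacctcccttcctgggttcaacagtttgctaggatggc
Bulk-only chr10:134649901-134650100: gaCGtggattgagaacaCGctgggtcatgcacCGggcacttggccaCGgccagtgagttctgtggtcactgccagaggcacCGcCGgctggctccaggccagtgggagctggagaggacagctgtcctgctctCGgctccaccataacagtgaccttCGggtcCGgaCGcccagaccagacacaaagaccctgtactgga
Sorted-only chr14:27949901-27950100: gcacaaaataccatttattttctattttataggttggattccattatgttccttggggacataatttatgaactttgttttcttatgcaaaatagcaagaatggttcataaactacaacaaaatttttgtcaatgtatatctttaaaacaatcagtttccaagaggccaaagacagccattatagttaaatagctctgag
Sorted-only chr1:82249901-82250100: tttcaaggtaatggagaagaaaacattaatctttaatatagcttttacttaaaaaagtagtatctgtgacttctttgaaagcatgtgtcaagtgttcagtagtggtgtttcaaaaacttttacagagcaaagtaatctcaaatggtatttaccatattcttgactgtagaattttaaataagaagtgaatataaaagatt
The bulk-only stretch of chromosome 2 lies within the gene ARHGEF4, has a GC content of 48.5% and holds 1 CG, and that of chromosome 10 lies within CFAP46, has 63.0% and holds 10. The sorted-only stretches lie within MIR3171HG on chromosome 14 and ADGRL2 on chromosome 1, have GC contents of 30.0% and 27.5%, and hold no CG. In the order shown, their 100 kb windows had GC contents of 46.6%, 56.2%, 34.4% and 36.3%, less extreme than the stretches. Over the whole classes, GC content was 43.6% for bulk-only and 37.98% for sorted-only windows.

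The bulk list was the longest of the HCT116 lists. It held 443 regions and 834.2 Mb, whereas the G1 list held 443 regions and 624.9 Mb, the S list 471 and 692.5 Mb, and the G2 list 430 and 618.0 Mb. Of all windows, 26.9% were called in bulk, 20.2% in G1, 22.4% in S, 20.0% in G2 and 24.2% in at least 1 of these phases. Bulk-only windows were 19.5% of the bulk windows, and sorted-only windows were 10.2% of the windows of the sorted phases. Of the 8344 bulk windows, 5374 (64.4%) were called in all 3 phases, 684 in 2 and 662 in 1.

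Bulk-only windows overlapped with early G1 LADs. In the 90m G1 list, which covers 17.0% of all windows, 752 of the 1624 bulk-only windows were called (46.3%), against 34.4% of the shared windows, 9.85% of the windows in neither and 7.61% (58 windows) of the sorted-only windows. Among the 19 chromosomes with at least 20 bulk-only windows, this share ranged from 12.7% to 80.0% with a median of 55.2%, and on 16 of them it was above the share of all windows of that chromosome. In the later 180m G1 list, which covers 20.5% of all windows, the bulk-only windows ranked last of these classes of LADs. There 13.4% of the bulk-only, 78.1% of the shared and 40.6% of the sorted-only windows were called. Bulk-only windows were thus called more often than all windows at 90 min and less often at 180 min, and sorted-only windows the reverse.

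**Figure D1:**
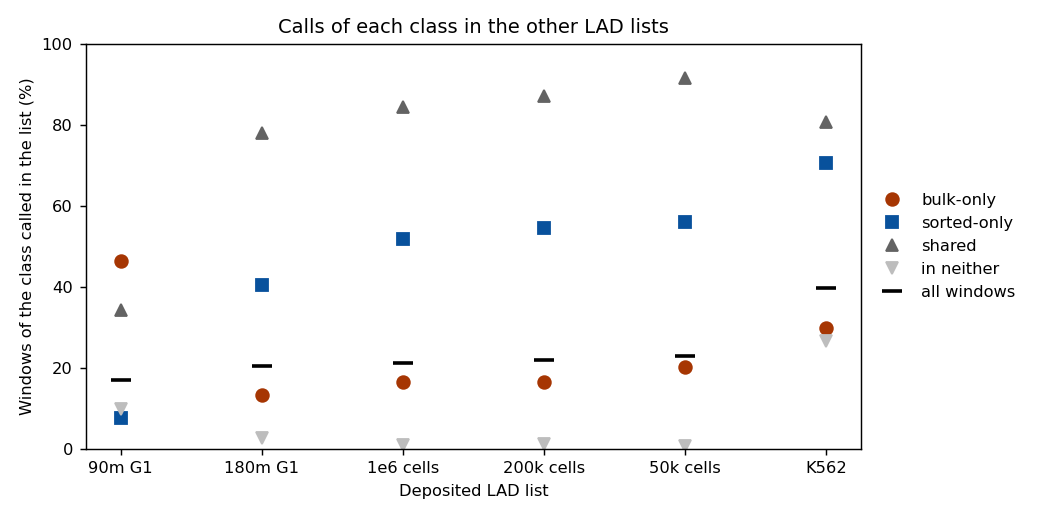
The share of the windows of each class (vertical axis, %) that was called in each of 6 other deposited LAD lists (horizontal axis), with 1 point per class and a black bar for all windows. Bulk-only windows lie above the bar only for 90m G1 (46.3% against 17.0%), and sorted-only windows lie below it only there (7.61%).

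Bulk-only windows were also mostly missing from the other unsorted cells. The 1000000-cell list, which covers 21.2% of all windows, held 16.5% of them, the 200000-cell list, with 21.9%, held 16.4%, and the 50000-cell list, with 22.8%, held 20.1%. Of the sorted-only windows these lists held 51.7%, 54.6% and 55.9%, and of the shared windows 84.5%, 87.1% and 91.6%. In all, 1204 bulk-only windows (74.1%) were in none of the 3 cell-number lists and 173 (10.7%) were in all of them. By contrast, 194 sorted-only windows (25.5%) were in none and 253 (33.2%) in all. A total of 453 bulk-only windows were in no other HCT116 list, that is, in no phase, no cell-number list and neither of the 90m and 180m lists. They had a GC content of 42.8%, and 15 of them (3.31%) were distal, against 5.05% of all windows.

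When a cell-number list took the place of the bulk list, several of these differences changed sides. With 1000000 cells, 489 windows were unsorted-only and 1410 sorted-only, with 200000 cells 505 and 1210, and with 50000 cells 480 and 900. The share called in 90m G1 was then 7.57%, 3.96% and 9.79% for the unsorted-only windows, but 47.7%, 46.9% and 44.2% for the sorted-only windows. Of those sorted-only windows, 73.9%, 71.4% and 62.7% were in the bulk list. The GC content and the distal share changed sides in the same way. There was 39.0%, 38.4% and 39.4% GC in the unsorted-only and 41.3%, 41.9% and 41.4% in the sorted-only windows. The distal shares were 2.25%, 2.57% and 3.13% in the unsorted-only and 11.6%, 12.6% and 13.0% in the sorted-only windows. The excess of early G1, GC-rich and distal windows on the unsorted side was thus seen with the bulk list and with none of the 3 cell-number lists. The order in 180m G1 did not change sides, with 11.5%, 15.8% and 17.5% of the unsorted-only and 46.6%, 39.3% and 39.3% of the sorted-only windows called there.

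**Figure D2:**
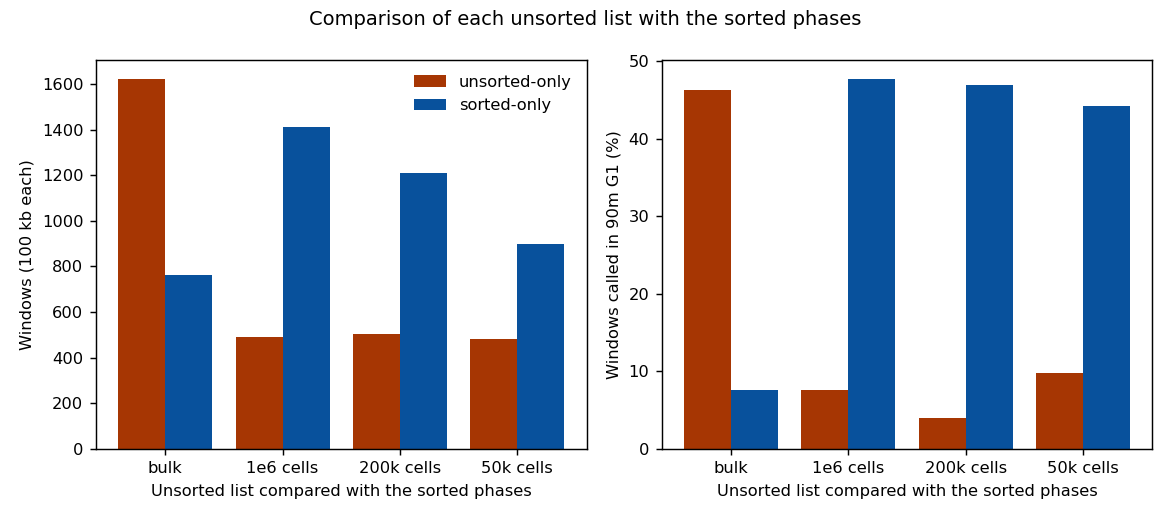
Each unsorted list (horizontal axes) set against the union of the sorted phases: the number of windows found on 1 side only (left) and the share of them called in 90m G1 (right, %). The bulk list has 1624 unsorted-only and 762 sorted-only windows, and in each of the 3 cell-number lists the sorted-only bars are the higher ones in both panels.

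Bulk-only windows were frequent near the ends of chromosomes. A window was counted as distal where its centre lay in the outer 2.5% of the chromosome's length at either end. Of the bulk-only windows 226 (13.9%) were distal, against 5.997% of the shared windows, 4.27% of those in neither and 1 (0.131%) of the sorted-only windows. Within the outer 10% lay 37.5% of the bulk-only, 25.8% of the shared and 7.48% of the sorted-only windows, where 20.03% of all windows lie. The median distance from the nearest end was 21.4 Mb for bulk-only, 27.6 Mb for shared and 33.6 Mb for sorted-only windows.

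The distal windows were those of early G1. The 752 bulk-only windows called in 90m G1 had a median distance of 9.17 Mb from the end, and 69.7% of them lay in the outer 10%. For the 872 bulk-only windows not called in 90m G1 these values were 38.9 Mb and 9.75%. In each class, 90m G1 calls were more frequent near the ends than in the middle of the chromosomes. Within the outer 2.5%, 203 of the 226 bulk-only windows (89.8%), 98.0% of the shared windows and 58.0% of the windows in neither were called in 90m G1. Between 5% and 10% from the end these shares were 79.9%, 70.6% and 31.7%, and from 20% to the middle of the chromosome they were 6.43%, 5.77% and 0.596%. At a given position, bulk-only and shared windows thus had shares of 90m G1 calls within 10 percentage points of each other, and both were above the windows in neither.

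**Figure D3:**
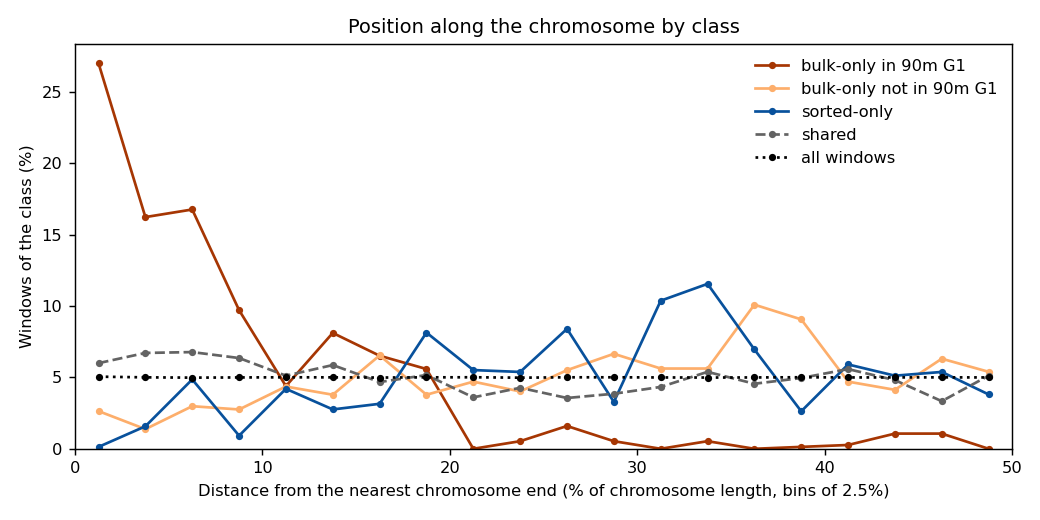
The distribution of each class of windows (vertical axis, % of the class per bin) over the distance from the nearest chromosome end, in bins of 2.5% of the chromosome length (horizontal axis). Of the bulk-only windows called in 90m G1, 27.0% fall in the outermost bin, against 2.64% of the other bulk-only windows and 0.131% of the sorted-only windows.

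The classes differed in base composition. Bulk-only windows had a GC content of 43.6% (window SD 4.88, n = 1624, of which 20 windows with 50% or more unknown bases are not in the SD), shared windows 38.8%, sorted-only windows 37.98% (window SD 2.98, n = 762, 5 windows likewise left out of the SD) and windows in neither 41.5%. The bulk-only windows were richer in GC than the shared windows on all 19 chromosomes with at least 20 of them, by 1.98 to 8.93 percentage points. They were richer than the sorted-only windows on all 14 chromosomes with at least 20 of both, by 2.04 to 11.2 percentage points. Sorted-only windows were poorer in GC than shared windows on 14 of the 17 chromosomes with at least 20 of them. The density of CG dinucleotides was 12.0 per kb in bulk-only, 7.49 in shared and 6.72 in sorted-only windows. GC content was higher in the bulk-only windows called in 90m G1 (46.1%) than in the other bulk-only windows (41.4%). At equal GC content the share called in 90m G1 was lower for bulk-only than for shared windows, with 30.0% against 52.1% between 40% and 42% GC, and 84.8% against 93.3% at 48% GC or more.

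**Figure D4:**
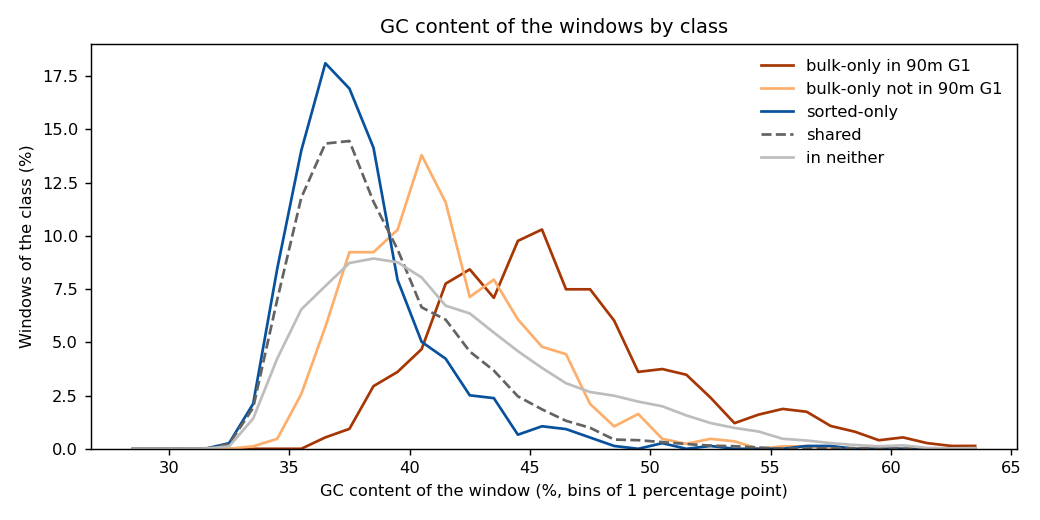
The distribution of window GC content (horizontal axis, %, in bins of 1 percentage point) for each class (vertical axis, % of the class), without windows that are 50% or more unknown bases. Sorted-only windows peak with the shared windows, with medians of 37.5% and 38.03%, and bulk-only windows lie to the right, with medians of 45.4% where they were called in 90m G1 and 40.9% where they were not.

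These properties changed step by step with the number of phases in which a bulk window was called. From 0 to 1, 2 and 3 phases, the GC content of bulk windows was 43.6%, 41.4%, 40.7% and 38.2%, and the share called in 90m G1 was 46.3%, 41.4%, 39.3% and 32.9%. The distal share was 13.9%, 12.2%, 7.75% and 5.01%, and the share called in the 50000-cell list was 20.1%, 46.1%, 77.6% and 99.0%.

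Among sorted-only windows S phase was the most frequent. Of the 762 windows, 602 (79.0%) were called in S, 328 (43.0%) in G2 and 274 (35.96%) in G1. S alone accounted for 331 (43.4%), G1 alone for 63 and G2 alone for 60, while 134 (17.6%) were called in all 3 phases. The S list is itself the longest of the phase lists. The windows of S alone had a GC content of 37.4%. They were called in 33.8% of cases with 1000000 cells, 36.3% with 200000 cells and 29.9% with 50000 cells. Of the 134 windows called in all 3 phases, 123, 126 and 133 were also called with 1000000, 200000 and 50000 cells. No window of the genome was called in all 3 phases and in none of the 4 unsorted lists. In K562 cells, whose list covers 39.6% of all windows, 70.6% of the sorted-only windows were called, 80.8% of the shared and 29.9% of the bulk-only windows.

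The bulk-only windows formed 496 runs of neighbouring windows with a median of 0.2 Mb, and 181 of these were 1 window long. In 321 runs (986 windows) the run touched a shared window on 1 side, so that the bulk LAD reached farther than that of any phase. In 97 runs (277 windows) it lay between shared windows on both sides, and 78 runs (361 windows) stood alone. Of the bulk-only windows 29.7% directly neighboured a window of a sorted phase and 81.0% lay within 1 Mb of such a window. The runs that extended a shared stretch faced the nearer chromosome end in 154 cases and the middle of the chromosome in 167, with 50.8% and 47.5% of their windows called in 90m G1. The sorted-only windows formed 241 runs, of which 156 extended a shared stretch, 13 lay between shared stretches and 72 (331 windows) stood alone. Among the deposited regions, 78 of the 443 bulk regions (17.6%) had no window in any phase, whereas 24 of 443 regions of G1, 58 of 471 of S and 31 of 430 of G2 had no window in bulk.

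The longest bulk-only run, chr2:130500001-132900000, extended a LAD by 2.4 Mb. It held 24 protein-coding genes, among them PLEKHB2, ARHGEF4, a guanine nucleotide exchange factor, and POTEE. None of its 24 windows was called in any other HCT116 list, and 4 were called in K562. The next runs lay nearer to chromosome ends. At the end of chromosome 10, chr10:133700001-135534747 had a GC content of 54.0% and held 31 protein-coding genes with INPP5A, an inositol phosphate phosphatase, and the ciliary gene CFAP46, and 17 of its 19 windows were called in 90m G1. All 16 windows of chr11:124700001-126300000 were called in 90m G1, with the homeobox gene PKNOX2 and the Hedgehog co-receptor CDON among its 29 genes. So were all 15 of chr15:100900001-102400000, with the proprotein convertase PCSK6 and the kinase LRRK1, and all 13 of chr10:123800001-125100000, with TACC2 and the mucosal glycoprotein DMBT1. All 12 windows of chr7:137300001-138500000, with TRIM24, CREB3L2 and AKR1D1, an enzyme of bile acid synthesis, were called there too.

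A run of another kind was chr7:61100001-62500000, which lies beside the centromere of chromosome 7. It had a GC content of 37.1% and no protein-coding gene. All its 14 windows were called in bulk, in each of the 3 cell-number lists and in K562, but none in G1, S, G2, 90m G1 or 180m G1. The same pattern was frequent among the 173 bulk-only windows that all 3 cell-number lists held. Of these, 114 (65.9%) lay within 5 Mb of the longest stretch of unknown bases of their chromosome, which on most chromosomes includes the centromere, against 14.7% of all bulk-only and 13.6% of all windows. The share of all windows includes windows inside that stretch, which hold no known sequence. The 173 windows had a GC content of 38.8%, 1.68 protein-coding genes per Mb and 5 windows in 90m G1.

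Of the whole bulk regions without a window in a sorted phase, the longest was chr16:54200001-55500000 with 13 windows. It holds IRX3, IRX5 and IRX6, homeobox genes of the Iroquois family, and was in no other HCT116 list. All 12 windows of chr1:229800001-231000000 were called in 90m G1 and 8 in 180m G1. Its 6 genes include AGT, which encodes angiotensinogen, and GALNT2, which starts mucin-type O-glycosylation. The 12 windows of chr8:142400001-143600000, with TSNARE1 and the phosphatase gene PTP4A3, were all called in 90m G1. Of the 12 windows of chr16:48700001-49900000, with the zinc finger gene ZNF423 and the synaptic organizer CBLN1, 4 were called in 90m G1 and 9 in K562.

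The longest sorted-only run was chr14:26700001-29200000, 2.5 Mb with a GC content of 35.0%. All its 25 windows were called in G1, S and G2, in the 3 cell-number lists and in K562, 10 in 180m G1, and none in bulk or 90m G1. It joined shared stretches on both sides, and its protein-coding gene is NOVA1, a neuronal splicing regulator. Of chr14:33100001-34200000, with the transcription factor gene NPAS3, 9 windows were called in G1, 8 in S and 11 in G2, and all 11 in each cell-number list. Of chr15:46000001-47400000, which holds no protein-coding gene, 12 of the 14 windows were called in G1, 10 in S and 14 in G2.

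In the other long sorted-only runs S was the leading phase. All 23 windows of chr1:81100001-83400000, with the latrophilin gene ADGRL2, were called in S, 1 in G2 and none in G1. All 21 windows of chr5:145900001-148000000, with PPP2R2B, a regulatory subunit of protein phosphatase 2A, were called in S, 8 in G2 and 2 in G1. The 19 windows of chr6:123200001-125100000 hold NKAIN2 and TRDN, which encodes the muscle protein triadin, and were all called in S and in 180m G1, 17 in G2 and none in G1. All 18 windows of chr2:163400001-165200000, with the microtubule-severing gene FIGN, and all 13 of chr2:198800001-200100000, with PLCL1, were called in S and in 180m G1, 7 and 8 of them in G2 and none in G1. All 10 windows of chr1:74600001-75600000, with the cardiac kinase gene TNNI3K, were called in S, 6 in G2 and 2 in G1. None of the 10 longest sorted-only runs had a window in 90m G1.

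The bulk-only windows held more genes per Mb than the LADs that both sides shared. A gene was counted where at least 80% of its length lay in the windows of a class. Bulk-only windows held 1027 protein-coding genes (6.33 per Mb), shared windows 1130 (1.68 per Mb), sorted-only windows 168 (2.20 per Mb) and windows in neither 17527 (8.02 per Mb), and the density over all windows was 6.51 per Mb. Density was 8.26 per Mb in the bulk-only windows called in 90m G1 and 4.66 per Mb in those not called there. By number of phases, bulk windows held 6.33, 3.22, 2.25 and 1.27 protein-coding genes per Mb for 0, 1, 2 and 3 phases. Long non-coding RNA genes were at 7.08 per Mb in bulk-only, 3.88 in sorted-only and 4.23 in shared windows.

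The longest bulk-only gene was HS6ST3, a heparan sulfate sulfotransferase gene of 749.5 kb. It was followed by RPS6KA2, a ribosomal S6 kinase, FOXN3, a forkhead transcription factor, PCSK5, a proprotein convertase, SLC25A48, a mitochondrial carrier, PRKCB, protein kinase C beta, KCNIP1, a partner of potassium channels, ZNF423, MGAT5, an N-glycan branching enzyme, and RPH3A, a protein of synaptic vesicles, the last with 328.5 kb. The 10 longest sorted-only genes ran from 1022 kb to 368.7 kb and included NKAIN2, NPAS3, PLCL1, ADGRL2, CFAP299, PPP2R2B, the scavenger receptor gene MSR1, TRDN and SLIT2, which encodes an axon guidance ligand.

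Of 6 fixed gene lists only the list of the nuclear lamina and envelope had a member in either class. Of all 20162 protein-coding genes, 5.09% were bulk-only, 0.833% sorted-only, 5.60% shared and 86.9% in neither. TMPO, which encodes the lamina-associated polypeptide LAP2, was 1 of 18 genes of the lamina and envelope (5.56%), near the bulk-only share of all genes. It lies at chr12:98909357-98944129 on the plus strand, was wholly inside a bulk LAD and was in none of the other 9 lists, and the other 17 genes were in neither. All 25 cell cycle and replication genes and all 15 heterochromatin genes were in neither, as were 19 of 20 intestinal epithelium genes, with OLFM4, a marker of intestinal stem cells, shared. Type II cadherins and neuronal adhesion genes lay mostly in shared windows, with 9 of 13 and 19 of 30. NCAM2, a neural adhesion molecule looked up after the values were seen, was wholly inside the LADs of G1, S and G2 but had 42.1% of its length in bulk and 57.9% in sorted-only windows.

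The clustered protocadherins were chosen after the values were seen. These adhesion proteins, expressed from neighbouring promoters, give neurons their individual surface identity. All 53 genes of the alpha, beta and gamma clusters lay in the bulk-only region chr5:140100001-140900000, a whole bulk region of 8 windows with 57 protein-coding genes and a GC content of 41.2%. None of its windows was called in a sorted phase, 90m G1, 180m G1, 1000000 cells or K562, while 3 were called with 200000 cells and 2 with 50000 cells. Other families were matched by symbol in the same way, beside shares of 5.09% bulk-only and 0.833% sorted-only among all protein-coding genes. Of 415 olfactory receptor genes, 23 (5.54%) were bulk-only, near the share of all genes, and 27 (6.51%) sorted-only. Of 515 ZNF genes, 42 (8.16%) were bulk-only and 17 (3.30%) sorted-only. Of 374 solute carrier genes, 18 (4.81%) were bulk-only and 1 (0.267%) sorted-only. None of the 39 HOX genes, the 79 histone genes and the 149 keratin and keratin-associated protein genes was in either class.

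Chromosomes contributed unequally. Bulk-only windows were more numerous than sorted-only windows on 17 chromosomes and fewer on 6, which were chromosomes 6, 14, 17, 20, 21 and 22. Chromosome 10 held the most bulk-only windows (157, or 30.4% of its bulk windows) and 9 sorted-only windows. The highest bulk-only share was on chromosome Y, with 63 of 131 bulk windows (48.1%). There 52 of the 120 windows of the sorted phases (43.3%) were sorted-only. Chromosome 12 held 64 and 2. Chromosome 1 held the most sorted-only windows (96) beside 116 bulk-only windows. On chromosome 22 the bulk list had 9 windows, and 26 of the 33 windows of the sorted phases (78.8%) were sorted-only. On chromosome 17, 4 windows were bulk-only and 27 sorted-only, and on chromosome 21, 7 and 32. On chromosomes 6, 12, 14 and 15 the share of bulk-only windows called in 90m G1 was 80.0%, 71.9%, 71.9% and 71.4%, where 14.5%, 13.7%, 13.4% and 10.1% of all windows of these chromosomes were called. On chromosome 13 it was 13.6% against 4.77%. On chromosomes 9 and 16 it was 15.1% and 18.1%, below the 20.1% of all windows of each. On chromosome Y it was 12.7% against 12.8% of all windows.

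**Figure D5:**
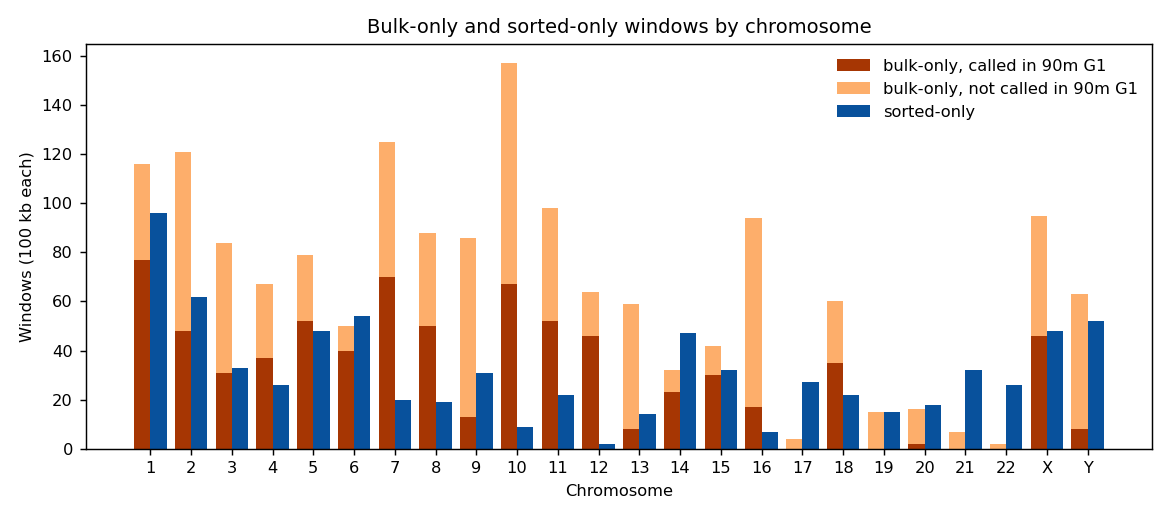
The number of bulk-only windows, divided into those called in 90m G1 (dark) and not called there (light), and of sorted-only windows (blue) on each chromosome (horizontal axis). Chromosome 10 has the highest bulk-only bar (157), and on chromosomes 17, 21 and 22 the sorted-only bar (27, 32 and 26) is the higher one.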

How the data were processed

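The authors aligned reads to hg19 with Bowtie2 2.3.2, removed duplicates, counted reads in windows with bedtools 2.26.0, scaled libraries to equal totals, turned the log2 of the pull-down over the input into z-scores and called LADs with a 3-state Hidden Markov Model. The tool versions are from the submitters' processing notes. Calls of replicates were intersected by the authors. The 90m G1 and 180m G1 lists are not named as consensus lists. The deposited files used here are 1 table per condition with the chromosome, start and end (bp) of each called region. They hold no signal, ratio or depth, so that the precision between experiments cannot be given from them. An intersection of replicates drops windows called in 1 replicate only, and the number dropped can differ between conditions.

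Regions of 10 lists were placed on 30970 windows of 100 kb, a window being called where a region covered at least 1 bp of it. All starts fitted the windows, and the 23 ends that did not equal the chromosome length. A mitochondrial region of the 50000-cell list was left out, and 4 lists comparing K562 cTSA-seq with TSA-seq were not used. GC content and sequences came from the hg19 sequence, and genes from GENCODE release 44 on hg19. A class of windows was compared with others by counts and shares only. Python 3.11.15 was used with pandas 2.3.3, numpy 2.4.6, scipy 1.17.1 and matplotlib 3.10.9, and the assignment to classes was tested on simulated data.

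The members and lists were chosen with earlier results of these data known. The regions named are the 10 longest runs of each class and the 5 longest bulk regions without a window in a sorted phase. The genes named are up to 3 of the longest protein-coding genes of each such region, the 10 longest of each class, and members of 6 fixed lists with at least 80% of their length in a class. Some items that this rule names are not reported here. Regions and genes named outside this rule were chosen after their values were seen. The alternatives were sorted calls required in all 3 phases, a tolerance of 1 window, autosomes only, leaving out windows with 50% or more unknown bases, other gene shares, other distal widths, leaving out each chromosome in turn, and the 1000000-cell list in place of bulk. The lists of 200000 and 50000 cells in place of bulk were added after the data were seen.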

Additional observations from a re-analysis of the deposited data

How the results depend on the processing

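No paired analysis was possible because each condition is 1 list, with no separate list for each replicate. A share counted as moved where it left its 95% Wilson interval over windows, which covers the number of windows and not the replicates. GC content and gene density counted as moved beyond 1 SD over chromosomes, and counts beyond 1.5 times. Of 84 recomputed values, 40 stayed within these limits, among them both counts without windows of 50% or more unknown bases and all gene densities under other gene shares. The lists give no depth, so its effect on the calls is not shown.

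With sorted calls required in all 3 phases there were 2970 bulk-only and 134 sorted-only windows, 43.6% and 5.22% of them called in 90m G1, 28.2% of the bulk-only windows called in 180m G1, and distal shares of 12.1% and 0%. With a tolerance of 1 window the bulk-only windows were called in 90m G1 in 48.9% and in 180m G1 in 10.2% of cases, and no sorted-only window (0%) was distal, as on autosomes only (0%). With the outer 5% or 10% counted as distal, the shares were 22.2% and 37.5% for bulk-only and 1.71% and 7.48% for sorted-only windows.

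The directions between bulk-only and sorted-only windows in 90m G1 share, GC content and distal share turned only when another unsorted list took the place of bulk, and that in gene density turned with 1000000 and 200000 cells and not with 50000 (3.38 and 2.95 per Mb). The direction in the 180m G1 share turned under no alternative. The cause was not tested. With 1000000 cells there were 489 unsorted-only and 1410 sorted-only windows, called in 90m G1 in 7.57% and 47.7% and in 180m G1 in 11.5% and 46.6% of cases, with 39.0% and 41.3% GC, distal shares of 2.25% and 11.6%, and 2.497 genes per Mb in the unsorted-only windows. With 200000 cells there were 505 and 1210 windows, called in 90m G1 in 3.96% and 46.9% of cases, 15.8% of the unsorted-only windows called in 180m G1, 38.4% and 41.9% GC, distal shares of 2.57% and 12.6%, and 2.06 genes per Mb in the unsorted-only windows. With 50000 cells there were 480 unsorted-only windows, and the 90m G1 shares were 9.79% and 44.2%, the 180m G1 share of the unsorted-only windows 17.5%, GC 39.4% and 41.4%, and the distal shares 3.13% and 13.0%.

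When each chromosome was left out in turn, bulk-only windows numbered 1467 to 1622 and sorted-only windows 666 to 760. The 90m G1 share was 44.8% to 48.0% for bulk-only and 5.86% to 8.26% for sorted-only windows, and the 180m G1 share 11.9% to 14.2% and 36.6% to 42.1%. GC content was 43.4% to 43.7% and 37.7% to 38.1%, gene density 5.90 to 6.51 and 1.99 to 2.31 per Mb, and the distal share 13.1% to 14.8% and 0% to 0.150%. Of these 288 values 3 moved, which were the sorted-only shares in 90m G1 (5.86%) and 180m G1 (36.6%) without chromosome 2 and the sorted-only distal share (0%) without chromosome X, which holds the 1 distal window.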
